A study of Mus musculus with 14 samples.

Results

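The core autophagy machinery was followed in sorted mouse regulatory T cells (Tregs), which are CD4 T cells that restrain immune responses and are marked by the transcription factor Foxp3. It was taken as 35 listed genes, found by gene symbol among 22203 transcript clusters (a transcript cluster is the group of probes that reads 1 gene) on Clariom S mouse arrays. All 35 genes were found, and none was removed for a low signal. The list was drawn up with earlier results of these data known. Donor cells carried a Foxp3 YFP-Cre allele, so that Cre, which deletes loxP-flanked DNA, was made in Foxp3+ cells. In the group labelled Atg14 KO both Atg14 alleles were flanked (Foxp3 Cre Atg14 fl/fl), and in the control group, labelled Atg14 heterozygous, 1 allele was, so that every profiled cell carried Cre and at least 1 flanked allele. CD45.2+ marrow of either genotype had been mixed in equal parts with CD45.1+ wild-type marrow and given to sublethally irradiated Rag1-/- hosts, which lack T and B cells of their own. Central Tregs (cTregs, CD44 low and CD62L high) and effector Tregs (eTregs, CD44 high and CD62L low) of the CD45.2+ donor were sorted apart within a CD4+ Foxp3-YFP+ gate, 6 to 8 weeks after marrow transfer per the labels, which gave 4 arrays of control cTregs, 3 of KO cTregs, 4 of control eTregs and 3 of KO eTregs. For the organs, the series description gives spleen with peripheral lymph nodes and the methods give spleen alone. The methods state an adult age range for the donor strain, with age-matched controls, and the age of the chimeras themselves was not given in the sources used here.

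Macroautophagy encloses cytoplasm in a double membrane, the autophagosome, and delivers it to the lysosome for degradation. The Ulk1 kinase complex starts the process, the Vps34 complex that contains Atg14 marks the site with a phosphoinositide, Atg9 vesicles and Atg2 lipid transfer proteins supply membrane, and a ubiquitin-like conjugation system attaches Atg8 proteins (the LC3 and GABARAP families) to it. Cargo receptors bind Atg8 proteins and bring in protein aggregates or organelles. Autophagy is known to support the survival and lineage stability of Tregs, and its activity is set largely by phosphorylation and lipidation, which messenger RNA arrays do not read. The comparisons below ask whether the messenger RNAs of the machinery itself differed between the Treg subsets or between the genotypes.

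Atg14, the gene targeted by Cre, was not lower in the arrays labelled KO. Its log2 signal was 9.26, 8.96, 8.64 and 8.89 in control cTregs, and 9.24, 9.33 and 9.29 in KO cTregs. In control eTregs it was 8.92, 9.01, 8.77 and 8.64, and in KO eTregs 9.15, 9.004 and 9.32. The fitted KO minus control difference was 0.35 ± 0.14 (SE) in cTregs and 0.32 ± 0.14 in eTregs (limma, adjusted P = 0.9999 and 0.551), and whether the probes lie inside the deleted part is not given in the sources used here, so this signal does not check the labels. The paper reports a quantitative PCR check of the Atg14 deletion in Tregs sorted from Foxp3 Cre Atg14 fl/fl mice, rather than from the chimeras. KO below means the arrays labelled KO. The sort was visible in Cd44, which was higher in eTregs by 1.61 ± 0.19 in controls and 1.80 ± 0.22 in KO arrays on the log2 scale (limma, adjusted P = 0.000121 and 0.00036), while Foxp3 lay between 12.7 and 13.1 on every array. KO eTreg 1 stood apart from KO eTreg 2 and 3 in the mean signal of markers of other cells. The CD4+ Foxp3-YFP+ gate is meant to remove such cells. The mean log2 signal of 12 monocyte and macrophage markers was 7.95 to 8.19 in control cTregs, 8.16 to 8.36 in KO cTregs and 8.87 to 9.27 in control eTregs, but 8.61, 10.64 and 10.60 in KO eTreg 1, 2 and 3. For 9 dendritic cell markers it was 8.21 to 8.28, 8.27 to 8.38 and 8.41 to 8.49 in the same groups. In KO eTreg 1, 2 and 3 it was 8.50, 9.05 and 9.39. Of these 9, 6 had a higher and 3 a lower mean in KO than in control eTregs. Siglech alone was called there (1.78, limma, adjusted P = 0.000483), where 0.117% of all transcript clusters were. It was above all control eTreg arrays (8.37 to 8.86) on KO eTreg 1 too, at 9.78, with 10.79 and 10.65 on KO eTreg 2 and 3. The background control probes had array medians of 6.00 to 6.30.

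The machinery as a whole was well detected in Tregs. Of the 35 genes, 31 had a mean signal above the median transcript cluster (8.82 on the log2 scale). The exceptions were Wipi1, Atg4c, Map1lc3a and Optn. Only Atg4c and Optn came within 0.5 log2 units of the median of the background probes on any array. The brightest of the 23 background probes was far above that median, at 9.51 to 10.07, and 22 members were above it on every array, 9 on some arrays and 4 on none. The 9 included Gabarapl1 (below it on 8 of 14 arrays), Nbr1 (10), Ulk1 (11) and Atg16l1 (11). The spread between arrays of a group was close to that of other genes, with a median SD over the 35 genes of 0.13 in control cTregs, 0.16 in KO cTregs, 0.15 in control eTregs and 0.18 in KO eTregs, against 0.14, 0.19, 0.16 and 0.17 over all transcript clusters. The highest SD of any member was that of Gabarapl1 in KO eTregs (0.82).

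**Figure D1:**
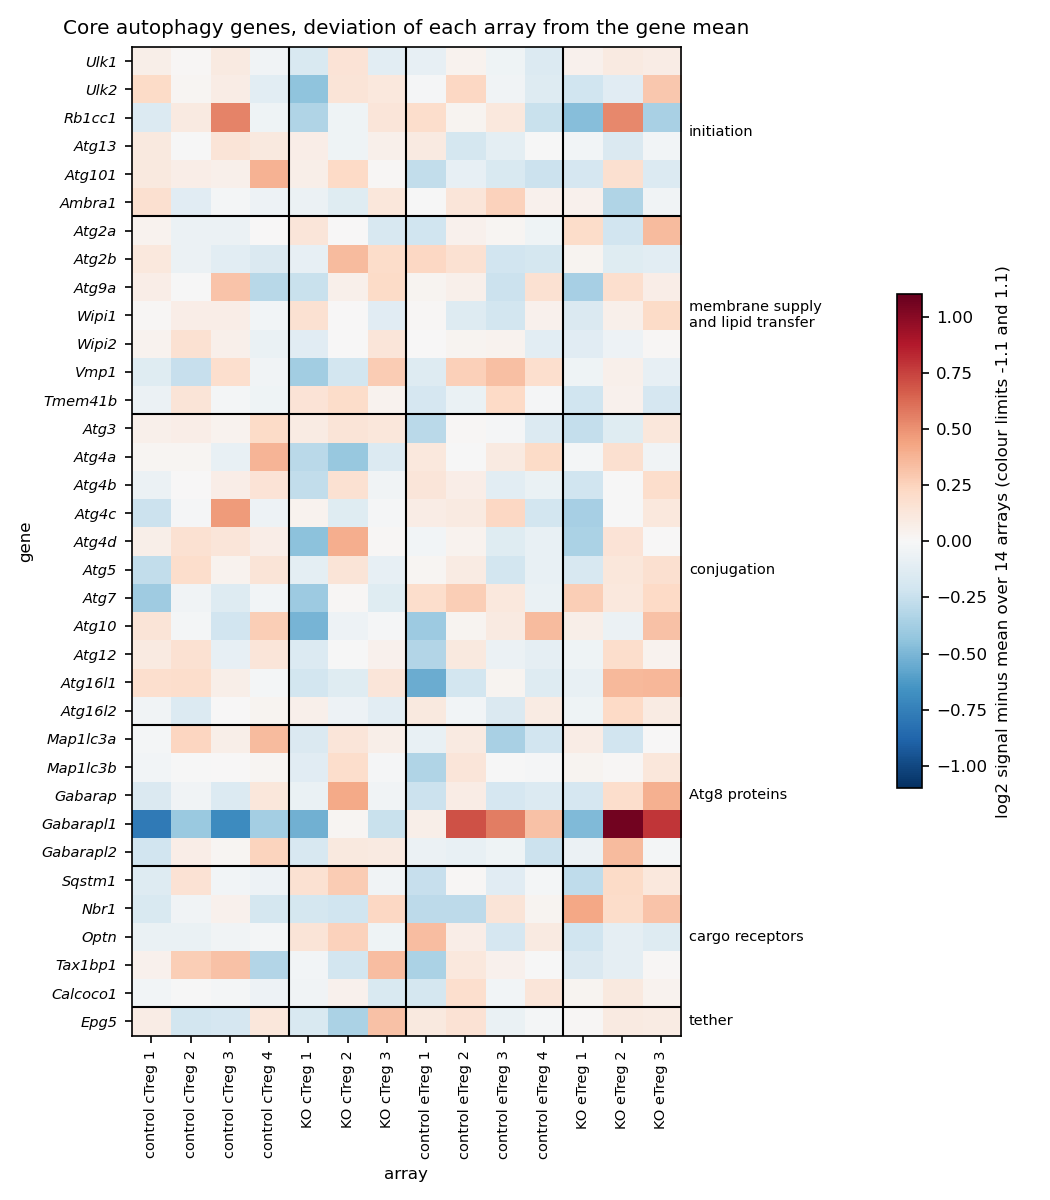
Heat map of the log2 signal of each of the 35 genes (rows, grouped by step of the pathway) on each of the 14 arrays (columns, grouped by subset and genotype), as the deviation from that gene's mean over all arrays. Gabarapl1 is the row with the widest range, low on the 4 control cTreg arrays, KO cTreg 1 and KO eTreg 1. It is highest on KO eTreg 2 and 3, while most other rows stay near 0.

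Of the 35 genes, 1 passed the adjusted threshold between subsets, in control arrays only, and none passed it between genotypes. A call means an adjusted P below 0.05 (limma, Benjamini-Hochberg over all 22203 transcript clusters), and the looser threshold of the study means an absolute log2 difference of at least 0.5 with an unadjusted P below 0.05. Between control eTregs and control cTregs 1 of 35 was called, where 3.58% of all transcript clusters were, and 1 passed the study threshold, where 4.72% did. Between KO eTregs and KO cTregs 0 of 35 were called (2.43% of all) and 1 passed the study threshold (5.81% of all). Between KO and control eTregs 0 of 35 passed either threshold (0.117% and 2.72% of all), and between KO and control cTregs 0 of 35 did (0.045% and 0.576% of all). For the interaction, which is the KO effect in eTregs minus the KO effect in cTregs, 0 of 35 were called (0% of all) and 1 passed the study threshold (3.05% of all). At an unadjusted P below 0.05 alone the counts were 5 of 35 for the subset comparison in controls (12.8% of all), 5 in KO arrays (13.8%), 2 for genotype in eTregs (8.03%), 1 for genotype in cTregs (4.01%) and 2 for the interaction (6.12%). Arrays of the compared groups did not overlap for 4 of 35 genes between subsets in controls (11.1% of all), 3 in KO arrays (14%), 2 between genotypes in eTregs (6.85%) and 1 in cTregs (5.05%).

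The median log2 difference over the 35 genes was -0.04 between subsets in controls, 0.04 between subsets in KO arrays, 0.04 between genotypes in eTregs and -0.02 between genotypes in cTregs. The medians over all transcript clusters were 0.0026, -0.04, -0.02 and 0.02. In controls 24 of 35 genes had a lower mean in eTregs, and in KO arrays 15 of 35 did. For KO eTreg 1 alone, with KO eTreg 2 and 3 left out, the median of the members was -0.12 against KO cTregs and -0.06 against control eTregs, values of 1 array that have no spread of their own. The 95% confidence interval of a member had a median half-width of 0.26 to 0.30 log2 units in these 4 comparisons. It lay within a 1.5-fold change either way for 33 of 35 genes between subsets in controls, for 29 between subsets in KO arrays, for 32 between genotypes in eTregs and for 31 between genotypes in cTregs. Within a 2-fold change lay 34, 34, 35 and 35 genes, the exception in both subset comparisons being Gabarapl1.

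**Figure D2:**
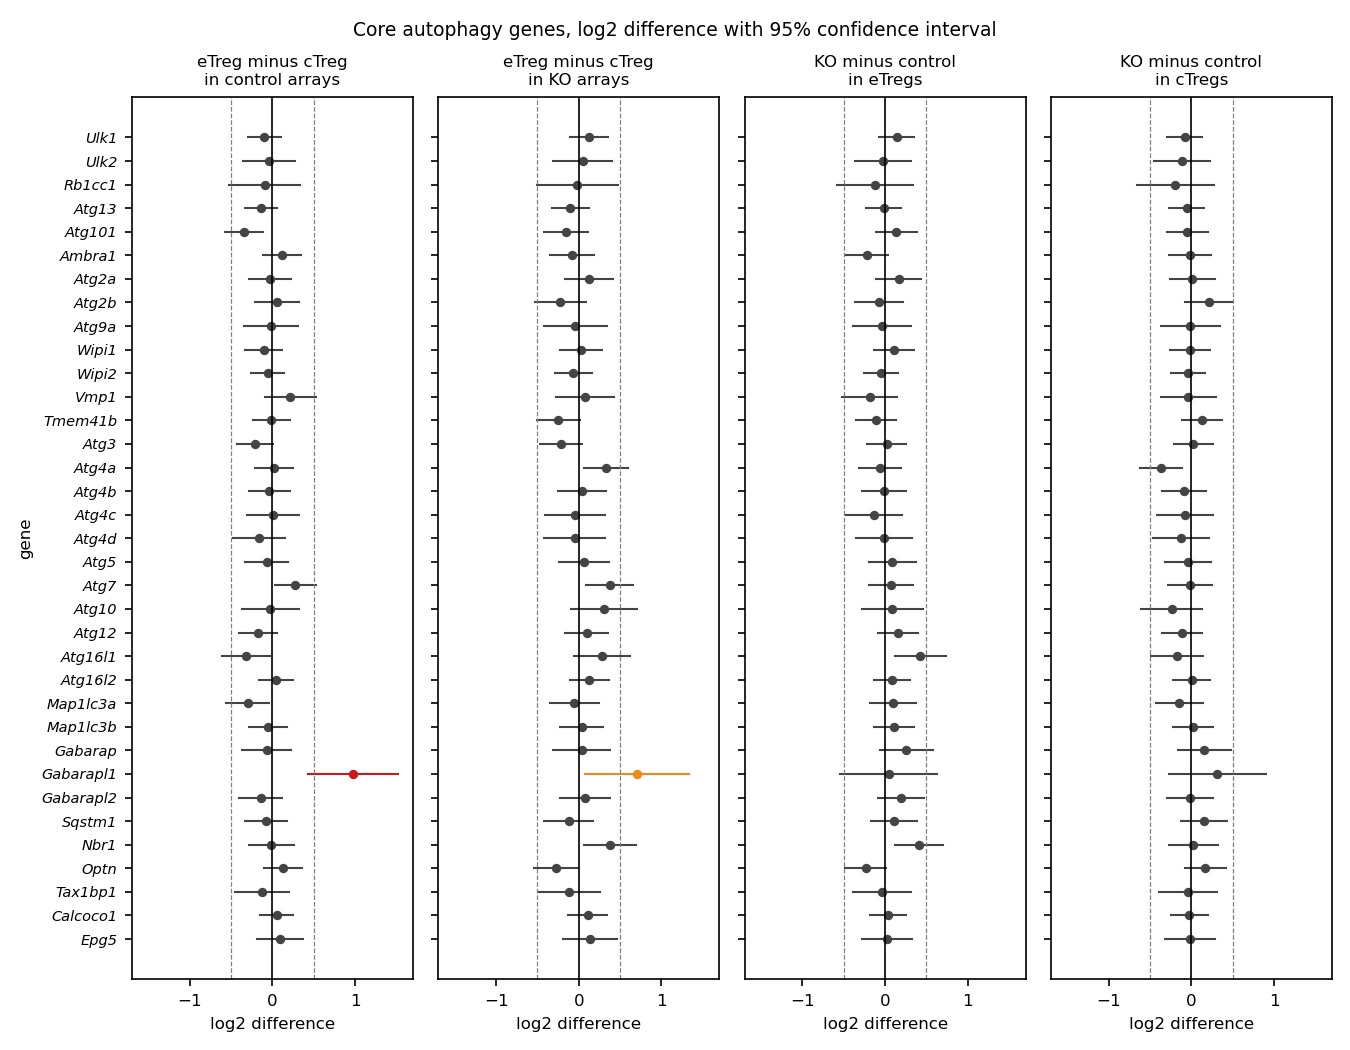
Log2 difference (points) with its 95% confidence interval (bars) for the 35 genes in 4 comparisons, with dashed lines at -0.5 and 0.5. The interval of Gabarapl1 lies to the right of 0 in both subset panels (red, adjusted P below 0.05, and orange, study threshold only), and in both genotype panels every interval stays within a 2-fold change.

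Initiation comprised the kinases Ulk1 and Ulk2, the scaffold Rb1cc1 (FIP200), the adaptors Atg13 and Atg101 that complete the kinase complex, and Ambra1, which links that complex to Beclin 1. None of the 6 genes passed either threshold in any comparison. Between subsets in controls 5 of 6 had a lower mean in eTregs, with differences from -0.34 to 0.11 and a median of -0.09. The lowest was that of Atg101, at 11.30 ± 0.15 (SD, n = 4) in control cTregs and 10.96 ± 0.079 (n = 4) in control eTregs. Its arrays did not overlap, but its difference of -0.34 ± 0.11 (SE) had an adjusted P of 0.122 (limma). With the replicate number as a random block the adjusted P was 0.048, and with array weights 0.0414, so that Atg101 was called in those 2 fits. In KO arrays the Atg101 difference was -0.15 ± 0.13. Between genotypes the 6 genes differed by -0.22 to 0.14 in eTregs and by -0.20 to -0.02 in cTregs, where all 6 means were lower in KO arrays. Ulk1 was between 9.56 and 9.62 on the KO eTreg arrays and between 9.37 and 9.55 on the control eTreg arrays, without overlap, at a difference of 0.14 ± 0.10 and an adjusted P of 0.802 (limma).

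Membrane supply and lipid transfer held no gene that differed by any threshold. It comprised Atg2a and Atg2b, which carry lipids between membranes, the scramblases Atg9a, Vmp1 and Tmem41b, and the phosphoinositide-binding Wipi1 and Wipi2, which read the product of Vps34. None of the 7 genes reached an unadjusted P below 0.05 in any of the 5 comparisons, and none had groups without overlap. Differences ran from -0.11 to 0.22 between subsets in controls, from -0.25 to 0.13 in KO arrays, from -0.18 to 0.16 between genotypes in eTregs and from -0.04 to 0.21 in cTregs. Wipi2, which recruits Atg16l1 to the forming membrane, differed by -0.05 ± 0.10 (SE) between genotypes in eTregs and by -0.04 ± 0.10 in cTregs.

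Conjugation held 11 genes and the 1 member that passed the study threshold in the interaction. Atg7 is the activating enzyme of both conjugation reactions, Atg3 and Atg10 are the transferring enzymes, Atg5, Atg12 and Atg16l1 form the complex that directs lipidation, Atg16l2 is a relative of Atg16l1, and Atg4a to Atg4d are the proteases that trim Atg8 proteins. No gene of the step was called in any comparison. Medians were -0.04 and 0.10 between subsets in controls and in KO arrays, and 0.07 and -0.09 between genotypes in eTregs and in cTregs.

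Atg16l1 had opposite genotype differences in the subsets. Its log2 signal was 9.66, 9.67, 9.53 and 9.45 in control cTregs and 9.27, 9.34 and 9.60 in KO cTregs. It was 8.92, 9.27, 9.50 and 9.33 in control eTregs and 9.39, 9.83 and 9.83 in KO eTregs. Groups overlapped in both subsets, and KO eTreg 2 and 3 were the 2 highest arrays of all 14. The KO minus control difference was 0.43 ± 0.15 (SE) in eTregs (limma, adjusted P = 0.385) and -0.17 ± 0.15 in cTregs (adjusted P = 0.9999). Their difference, the interaction, was 0.60 ± 0.21 (95% confidence interval 0.16 to 1.05), with an unadjusted P of 0.0108 and an adjusted P of 0.778. Between subsets Atg16l1 differed by -0.32 ± 0.14 in controls (adjusted P = 0.311) and by 0.28 ± 0.16 in KO arrays (adjusted P = 0.466). The interaction was just under the 0.5 limit without control eTreg 1 (0.49). It was 0.30 when KO eTreg 2 and 3, the arrays richest in macrophage markers, were left out together. That value rests on KO eTreg 1 alone, so only its size is given. The part of these markers in the Atg16l1 difference was not tested.

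The other genes of the conjugation step that reached an unadjusted P below 0.05, named after their values were seen, were Atg7 and Atg4a. Atg7 was higher in eTregs by 0.28 ± 0.12 (SE) in controls and by 0.37 ± 0.13 in KO arrays (limma, adjusted P = 0.302 and 0.199). Its signal was 10.71 ± 0.17 (SD, n = 4) in control cTregs, 10.69 ± 0.21 (n = 3) in KO cTregs, 10.99 ± 0.15 (n = 4) in control eTregs and 11.06 ± 0.076 (n = 3) in KO eTregs. Atg4a was 11.09 ± 0.20 (SD, n = 4) in control cTregs and 10.72 ± 0.13 (n = 3) in KO cTregs, without overlap. That difference was -0.37 ± 0.12 (SE), with an unadjusted P of 0.00688 and an adjusted P of 0.9999 (limma). In eTregs the Atg4a genotype difference was -0.06 ± 0.12, and between subsets in KO arrays Atg4a differed by 0.33 ± 0.13 (adjusted P = 0.241). The array holds a second entry with the Atg4a symbol, whose identifier codes for chromosome 3 instead of X. That entry had a lower mean signal, so it was not used. Its KO minus control difference was -0.28 in cTregs and 0.0029 in eTregs. Between subsets it differed by -0.09 in controls and by 0.20 in KO arrays. For Atg3, Atg4b, Atg4c, Atg4d, Atg5, Atg10, Atg12 and Atg16l2 no comparison reached an unadjusted P below 0.05.

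Of the 5 Atg8 genes only Gabarapl1, which encodes a GABARAP family member, passed a threshold. Its log2 signal was 9.18, 9.55, 9.27 and 9.59 in control cTregs and 10.03, 10.67, 10.52 and 10.28 in control eTregs, so that every control eTreg array was above every control cTreg array. It rose by 0.97 ± 0.26 (SE) on the log2 scale, or 1.96-fold (95% confidence interval on the log2 scale 0.43 to 1.52; limma, adjusted P = 0.0456). In KO cTregs it was 9.44, 9.98 and 9.71, and in KO eTregs 9.48, 11.02 and 10.74. KO eTreg 1 thus lay among the cTreg arrays, and the groups overlapped. The subset difference in KO arrays was 0.71 ± 0.29 (limma, adjusted P = 0.288), which passed the study threshold only. The genotype difference was 0.04 ± 0.28 in eTregs and 0.31 ± 0.28 in cTregs (adjusted P = 0.984 and 0.9999), and the interaction was -0.27 ± 0.39 (adjusted P = 0.944).

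The direction of the Gabarapl1 difference in controls held in all 23 alternatives, at 0.88 to 1.09, but the call depended on the fit. With the replicate number as a fixed block the adjusted P was 0.00973, and as a random block 0.0117. Of the 14 fits that each left out 1 array, 10 brought the adjusted P to 0.05 or above, the highest being 0.14 without control eTreg 2. The call stayed without control eTreg 1 and without each of the 3 KO eTreg arrays. In KO arrays the difference was 1.17 without KO eTreg 1 (limma, adjusted P = 0.00126), 0.40 without KO eTreg 2, 0.54 without KO eTreg 3 and -0.23 for KO eTreg 1 alone, an arm of 1 array. The mean log2 signal of the macrophage markers was 7.95 to 8.19 in control cTregs and 8.87 to 9.27 in control eTregs. In KO eTreg 1, 2 and 3 it was 8.61, 10.64 and 10.60. Markers and Gabarapl1 were both highest on KO eTreg 2 and 3. The cTreg arrays of both genotypes had the same order in both, from control cTreg 1 (7.95 and 9.18) to KO cTreg 2 (8.36 and 9.98). Among the control eTreg arrays the order differed, with control eTreg 1 at 9.05 and 10.03 and control eTreg 4 at 8.87 and 10.28. KO eTreg 1 was above KO cTreg 2 in the markers (8.61 against 8.36) and below it in Gabarapl1 (9.48 against 9.98). All 12 markers were measured, and 11 of 12 had a higher mean in control eTregs than in control cTregs. Their part in the Gabarapl1 difference was not tested, and in a sorted bulk sample a change in the cells present and a change in RNA per cell cannot be told apart.

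**Figure D3:**
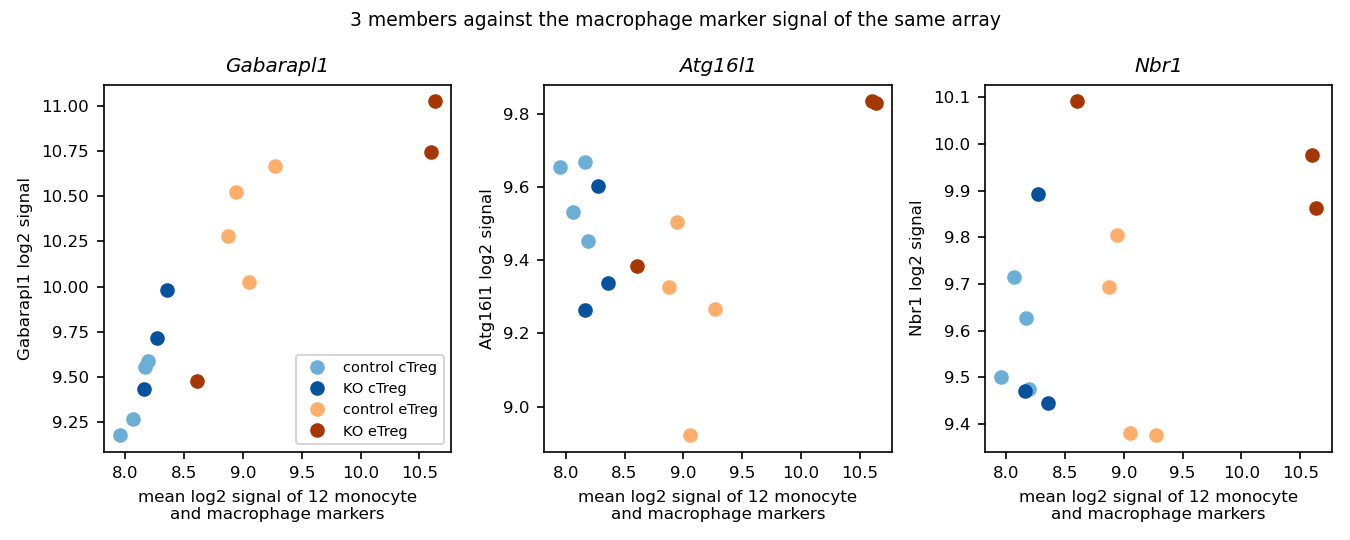
Log2 signal of Gabarapl1, Atg16l1 and Nbr1 (vertical axes) on the 14 arrays against the mean log2 signal of 12 monocyte and macrophage markers on the same array (horizontal axes), coloured by group. For Gabarapl1 the cTreg arrays of both genotypes lie lowest on the marker axis, at 7.95 to 8.36, and KO eTreg 2 and 3 lie highest on both axes. KO eTreg 1, at 8.61 and 9.48, lies among the cTreg arrays in Gabarapl1 only. The highest Nbr1 point is KO eTreg 1.

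The other Atg8 genes differed little. Map1lc3b, whose product LC3B is the standard marker of autophagosomes, differed by -0.05 ± 0.11 (SE) between subsets in controls and by 0.11 ± 0.11 between genotypes in eTregs. Gabarap differed by -0.07 ± 0.14 and 0.26 ± 0.15 in the same comparisons, and Gabarapl2 by -0.14 ± 0.12 and 0.20 ± 0.13. Map1lc3a was lower in control eTregs by a difference of -0.30 ± 0.12, with an unadjusted P of 0.0271 and an adjusted P of 0.287 (limma). All 5 Atg8 genes had a higher mean in KO than in control eTregs (0.04 to 0.26), none past either threshold.

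The sequence before the annotated start of Gabarapl1 is shown because this was the member called between subsets, beside that of its relative Gabarapl2, which was not. Both are from RefSeq on the mouse build GRCm38.p6, plus strand, and capitals mark matches on either strand to GGGCGG (a GC box, a common promoter element). The Gabarapl1 sequence is chr6:129532942-129533191 and the Gabarapl2 sequence chr8:111940453-111940702.
Gabarapl1: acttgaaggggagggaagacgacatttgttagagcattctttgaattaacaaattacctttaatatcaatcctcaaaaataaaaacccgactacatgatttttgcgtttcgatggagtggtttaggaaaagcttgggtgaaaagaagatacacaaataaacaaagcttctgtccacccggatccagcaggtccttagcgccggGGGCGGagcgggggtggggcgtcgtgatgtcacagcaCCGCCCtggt
Gabarapl2: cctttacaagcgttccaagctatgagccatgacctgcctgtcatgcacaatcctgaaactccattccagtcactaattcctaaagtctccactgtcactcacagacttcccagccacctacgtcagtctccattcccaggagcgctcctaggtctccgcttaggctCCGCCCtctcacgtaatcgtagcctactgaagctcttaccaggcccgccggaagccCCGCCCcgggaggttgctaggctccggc

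The full window ran from 250 bases before to 50 after the start. In it neither gene held CACGTG (bound by TFEB and TFE3, which drive autophagy and lysosome genes). Neither held the exact letters TGTTTAC (a form of forkhead site) or TGANTCA (an AP-1 site). Other forms of these sites were not searched, so their absence is not shown. Among the members, 30 had at least 1 such window, 36 windows in all. CACGTG was found in 3 of them, in Atg3, Atg5 and Atg7 (8.33%, against 7.15% of all 32851 windows), and the forkhead and AP-1 letters in 0 of 36 (3.65% and 7.81% of all). GGGCGG was found in 21 of 36 (58.3%, against 35.7% of all). These are matches of letters, not sites of binding.

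The cargo receptors Sqstm1 (p62), Nbr1, Optn, Tax1bp1 and Calcoco1 bind ubiquitylated or other cargo and Atg8 proteins. None of the 5 passed either threshold in any comparison. Nbr1 had the clearest genotype difference of the step. Its log2 signal was 9.38, 9.38, 9.80 and 9.69 in control eTregs and 10.09, 9.86 and 9.98 in KO eTregs, so that the groups did not overlap. The difference was 0.41 ± 0.14 (SE), with an unadjusted P of 0.00868 and an adjusted P of 0.36 (limma). In cTregs it was 0.02 ± 0.14, and the difference between the subsets was not called (interaction 0.39 ± 0.19, adjusted P = 0.822). Nbr1 was highest on KO eTreg 1, the KO eTreg array with the least macrophage marker signal. The part of these markers in the Nbr1 difference was not tested.

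Sqstm1, whose protein accumulates when autophagy stalls and whose transcript responds to oxidative stress, differed by 0.11 ± 0.13 (SE) between genotypes in eTregs and by 0.15 ± 0.13 in cTregs. Its arrays overlapped in both subsets (11.60 to 11.87 in control eTregs and 11.57 to 12.07 in KO eTregs). Optn was lower in KO eTregs than in KO cTregs, at a difference of -0.27 ± 0.13 without overlap (limma, adjusted P = 0.352), and its interaction was -0.40 ± 0.17 (adjusted P = 0.797), but all its values (6.28 to 6.84) were near the median of the background probes. Tax1bp1 and Calcoco1 did not reach an unadjusted P below 0.05 in any comparison. The tether Epg5, which joins autophagosomes to lysosomes, differed by 0.09 ± 0.13 and 0.13 ± 0.15 between subsets and by 0.03 ± 0.14 and -0.02 ± 0.14 between genotypes.

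**Figure D4:**
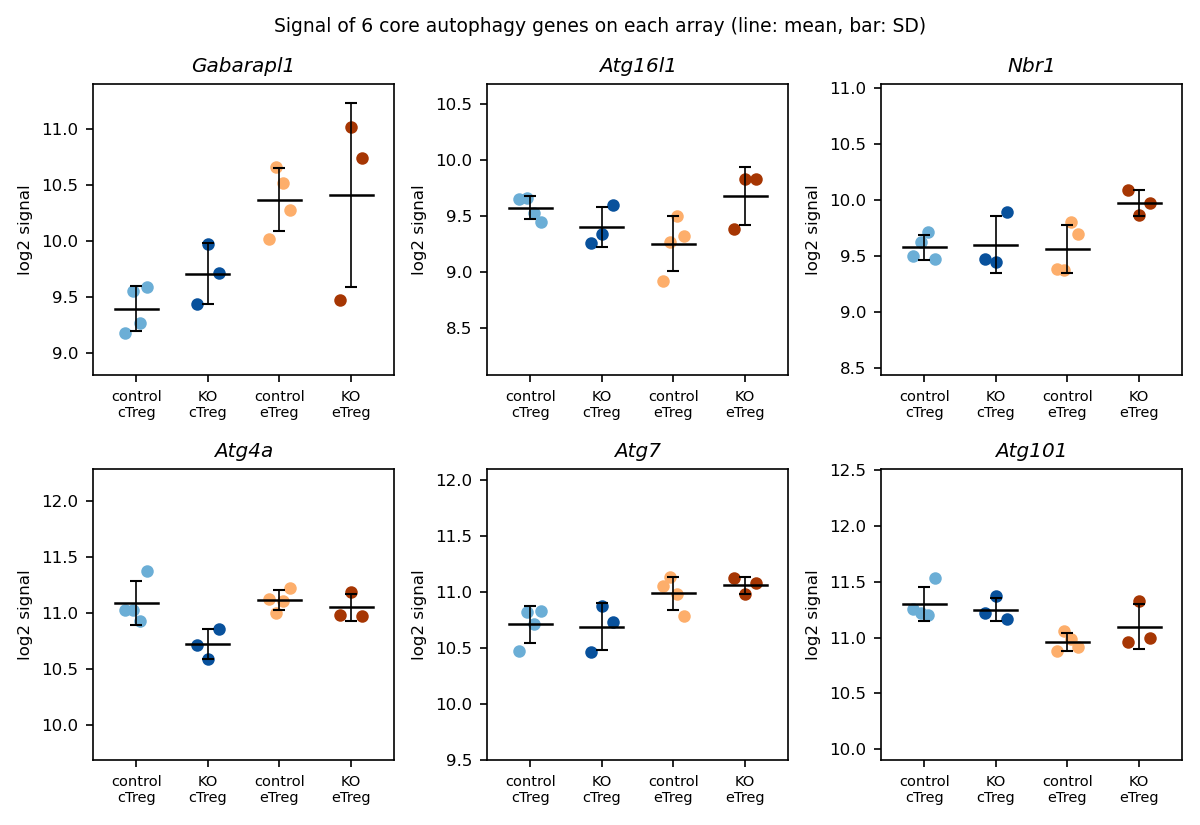
Log2 signal of 6 members on each array by group, with the group mean (horizontal line) and SD (bar), n = 4 control and 3 KO arrays per subset, and every panel spanning the same number of log2 units. The control eTreg points of Gabarapl1 lie above all control cTreg points, KO eTreg 1 lies low, and the other panels span less.

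Subset and genotype differences of the members were also set side by side in comparisons that share no array. Between the subset difference in controls and that in KO arrays, 18 of 35 genes had the same sign (57.7% of all 22203 transcript clusters did). The Pearson correlation across the 35 genes was 0.54, and 0.19 without Gabarapl1 (0.63 over all transcript clusters). Between the genotype difference in eTregs and that in cTregs, 20 of 35 had the same sign (47.8% of all) and the correlation was -0.04 (0.09 over all). These are correlations across genes measured on the same arrays, so they are given as descriptions without a P value.

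Beyond the core, 55 other genes of the pathway were measured: subunits of the Vps34 complexes, nutrient and energy kinases, transcription factors, fusion genes, other receptors and other Atg8 partners. Between subsets in controls 1 of 55 was called (3.58% of all transcript clusters), Lamp2, a lysosomal membrane protein needed for autophagosome clearance. Lamp2 was 11.32, 11.52, 11.39 and 11.71 in control cTregs and 12.08, 12.15, 12.08 and 11.97 in control eTregs, a rise of 0.59 ± 0.12 (SE) on the log2 scale (limma, adjusted P = 0.0112). The call was kept in each of the 14 fits that left out 1 array, and in KO arrays the Lamp2 difference was 0.54 ± 0.14 (adjusted P = 0.0601). In KO arrays it was 0.71 ± 0.13 without KO eTreg 1 (adjusted P = 0.00258), 0.48 without KO eTreg 2, 0.43 without KO eTreg 3 and 0.20 for KO eTreg 1 alone. Between subsets in KO arrays 1 of 55 was called (2.43% of all), Wdfy3 (Alfy), an adaptor for protein aggregates. Wdfy3 was 6.94, 7.04 and 6.89 in KO cTregs and 7.43, 8.34 and 8.29 in KO eTregs, and rose by 1.07 ± 0.20 (adjusted P = 0.0095). Its genotype difference in eTregs was 0.94 ± 0.19 (adjusted P = 0.0815), and KO eTreg 2 and 3, rich in macrophage markers, were again the 2 highest arrays. The Wdfy3 subset call was lost without KO eTreg 2 (0.91, adjusted P = 0.0587) and without KO eTreg 3 (0.93, adjusted P = 0.0638). KO eTreg 1 alone, which allows no spread, was 0.48 above KO cTregs and 0.35 above control eTregs. Without KO eTreg 1 the genotype difference in eTregs was 1.23 ± 0.15 (adjusted P = 0.000121). The part of those markers in the Lamp2 and Wdfy3 differences was not tested. Between genotypes 0 of 55 were called in either subset (limma; 0.117% of all in eTregs and 0.045% in cTregs), with 5 in eTregs (8.03% of all) and 3 in cTregs (4.01% of all) at an unadjusted P below 0.05.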

How the data were processed

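RNA of 14 sorted Treg samples was profiled on Clariom S mouse arrays. The deposited values are log2 signals that the authors computed by robust multi-array average in Affymetrix Expression Console 1.1 (background correction, quantile normalization over all arrays and median polish). Control probe sets (6640 of 28846 entries) and 3 entries without a symbol were left out, and 22203 transcript clusters (21902 symbols) were fitted without a filter. Of several entries with 1 symbol the one with the highest mean was used. All 35 members matched the RefSeq gene table of GRCm38.p6 (the build behind the array's identifiers is not given in the sources used here), and none was marked as cross-hybridising.

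Groups came from the labels. Values were read in R 4.3.3 with the data.table package (version 1.17.8), and limma 3.58.1 fitted the 4 group means of every transcript cluster, with degrees of freedom of 10 (residual) and 5.65 (prior). The 5 comparisons are contrasts of this fit. P values are two-sided and adjusted by Benjamini-Hochberg over all transcript clusters. The fit was tested on simulated data. Alternatives were other array scalings, a filter on low signal (mean above the 60th percentile), array weights, other priors and blocks, the mean of entries with 1 symbol, and leaving out each array. The methods give as many chimeras as arrays in each group (4 control and 3 KO), while the labels tie no array to an animal. P values measure the spread between these arrays, and the number of arrays limits the precision.

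The members, the list of 56 other pathway genes (55 matched), the marker lists and the naming rule were chosen with earlier results of these data known. All members may be named, with values by array for those past a threshold, and other pathway genes were named if called. Nbr1, Atg4a, Atg7 and Atg101 were shown after their values were seen. Of the 8 marker lists, that of B cells had means of 7.90 to 8.69 over all arrays. The CD8 T and NK list had 7.63 to 8.53, the neutrophil list 7.04 to 7.38 and the erythroid list 8.00 to 9.62. These means moved less than that of the macrophage list, but a mean hides members that move apart. Between subsets in controls the 6 CD8 T and NK markers differed by -1.30 to 2.20. Of them 1 was called higher and 2 lower (3.58% of all transcript clusters were called). The 12 macrophage markers differed by -0.06 to 3.39 there, with 1 called higher. Treg and T cell identity genes had means of 11.6 to 12.0 and the 2 sort genes of 11.4 to 12.4.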

Additional observations from a re-analysis of the deposited data

Results flagged for a closer look

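Atg101 in control cTregs had 1 array far from the others of its group. Control cTreg 4 was at 11.53 on the log2 scale and the other 3 arrays at 11.20 to 11.25. The gap was 0.843 of the group's range, above Dixon's 95% critical value for 4 arrays. Of the 70 groups of 4 control arrays examined (35 genes in both subsets), 1 was set apart in this way, and chance sets apart about 1 in 20.

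Atg16l1 differed between the subsets in its genotype effect at the study threshold, with an interaction of 0.6025 on the log2 scale. Its unadjusted P was 0.0108 and its adjusted P 0.778 (limma), so the interaction failed the correction over all transcript clusters.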

How the results depend on the processing

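A total of 23 alternatives fixed at the outset were run, and 1 was added after seeing the data (leaving out KO eTreg 2 and 3). The number of members called between subsets in controls was 1. It was 0 with array medians subtracted and with a trended robust prior, and 2 with array weights and with the replicate number as a random block (Gabarapl1 and Atg101). Leaving out 1 array at a time gave 0 to 1, and 0 to 1 for the count called between subsets in KO arrays (main 0). Between subsets in KO arrays the count past the study threshold was 1, but 0 in a fit of the 2 groups alone, and 0 to 1 over fits without 1 array. Between genotypes in eTregs that count was 0, and 0 to 2 over fits without 1 array (2 without KO eTreg 1, Atg16l1 and Gabarapl1, and 1 without control eTreg 3, Atg16l1), and for the interaction it was 1, and 0 to 2 (2 without KO cTreg 3, Atg16l1 and Nbr1, and 0 without control eTreg 1). Leaving out KO eTreg 2 and 3 leaves a KO eTreg arm of 1 array, assumed in the fit to vary like the other groups, so its values describe KO eTreg 1. Between genotypes in eTregs Gabarapl1 was then at -0.89 and Nbr1 at 0.53, and the Gabarapl1 subset difference in KO arrays reversed to -0.2316. The interaction was then -1.21 for Gabarapl1 and 0.30 for Atg16l1. The cause was not tested. No member was called between genotypes or in the interaction under any alternative. Same-numbered cTreg and eTreg arrays correlated in their deviations at 0.071 to 0.222 in controls and 0.044 to 0.303 in KO arrays. Arrays with unlike numbers correlated at -0.246 to 0.090 in controls and -0.311 to 0.117 in KO arrays. The same-numbered values were thus all positive and mostly higher, but the ranges overlapped. The methods give 4 control and 3 KO chimeras for both subsets, so that the subsets may come from the same mice, but no source used here says that a replicate number marks a mouse, so the numbers were not taken as pairs. With the replicate number as a fixed replicate block 1 member was called between subsets in controls, as without it (Gabarapl1, adjusted P = 0.00973). Fold changes of genes near the background probes, such as Optn and Atg4c, are the least certain, since signal over background limits them.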
